A study of Homo sapiens with 12 samples.

Results

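Long noncoding RNA (lncRNA) genes were followed in 12 bulk RNA-seq libraries of cancer cells that had or had not been passaged through repeated hydroxychloroquine (HCQ) exposure. The genes were chosen by their symbols and by their levels. A symbol had to start with LINC or SNHG or end in -AS1, -AS2, -AS3, -IT1 or -DT, and the gene had to reach 1 CPM (counts scaled to the library total) in at least 3 of 12 libraries. Of 28278 genes in the count table, 3149 carried such a symbol, 811 of them had a count of 0 in every library, and 421 met the rule. The same expression threshold was met by 12613 genes of any symbol. The 421 lncRNA genes comprised 237 antisense genes, 133 LINC genes, 29 divergent transcripts (-DT), 19 SNHG genes and 3 intronic transcripts (-IT1). They reached 1 CPM in all 4 groups for 335 genes, in 3 groups for 47, in 2 groups for 36 and in 1 group for 3. Because level chose the genes, levels are given as a description. Just inside the threshold, the third highest library stood at 1.015 CPM for CNOT2-DT, 1.015 CPM for SERTAD4-AS1 and 1.017 CPM for PTPRG-AS1. Just outside it stood HLA-F-AS1 at 0.967 CPM, LINC00926 at 0.964 CPM and ADD3-AS1 at 0.942 CPM.

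The study asked how cancer cells adapt to HCQ, a lysosomal inhibitor that blocks autophagy. Cells labelled OVCAR3, an ovarian cancer line, and CCL218, a colorectal cancer line, were grown in 96-well plates. HCQ-evolved plates (labelled passage 15) had received 15 drug exposures of 48 h with recovery in between and then 7 days without drug, and control plates (labelled passage 19) were passaged without it. Each of the 4 groups had 3 pools of wells, named L, M and R for their part of the plate, from which polyadenylated RNA was sequenced. All pools of a group came from 1 plate of 1 line, so p-values measure the spread between pools of a plate. Plate, passage and drug history cannot be told apart, nor can line and plate where the lines are compared. In such bulk pools, fewer cells of a type and less RNA per cell cannot be told apart.

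A lncRNA is a transcript without a long open reading frame, often spliced and polyadenylated like an mRNA. Antisense genes are transcribed from the strand opposite a coding gene, divergent transcripts leave a coding gene's promoter in the other direction, and LINC genes lie between coding genes. SNHG genes host small nucleolar RNAs (snoRNAs) in their introns. Those snoRNAs guide chemical modification of ribosomal RNA, and several spliced host transcripts begin with a pyrimidine tract like that of ribosomal protein mRNAs and are degraded by nonsense-mediated decay.

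The start sites of SNHG genes are shown because the levels of these genes moved together across the libraries. RefSeq windows on GRCh38.p14 were found for 16 of 19 SNHG genes, and SNHG6, SNHG9 and SNHG15 had no entry in the table used. Each line gives 25 bases before and 30 bases from the start, on the gene's own strand. Capitals mark the longest unbroken run of C and T that touched the stretch from 5 bases before to 10 bases after the start, and all 16 windows are printed.
SNHG1 (chr11:62855856-62855910, minus strand): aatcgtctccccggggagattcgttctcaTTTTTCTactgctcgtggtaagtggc
SNHG3 (chr1:28505918-28505972, plus strand): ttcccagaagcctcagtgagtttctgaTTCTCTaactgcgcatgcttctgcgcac
SNHG4 (chr5:139274076-139274130, plus strand): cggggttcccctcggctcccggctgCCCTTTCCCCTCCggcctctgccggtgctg
SNHG5 (chr6:85678704-85678758, minus strand): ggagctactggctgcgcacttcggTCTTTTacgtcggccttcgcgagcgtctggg
SNHG7 (chr9:136728155-136728209, minus strand): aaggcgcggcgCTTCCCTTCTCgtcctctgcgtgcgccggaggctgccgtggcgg
SNHG8 (chr4:118278737-118278791, plus strand): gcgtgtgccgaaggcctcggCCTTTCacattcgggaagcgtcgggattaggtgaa
SNHG10 (chr14:95534843-95534897, minus strand): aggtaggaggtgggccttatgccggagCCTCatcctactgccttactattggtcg
SNHG11 (chr20:38446629-38446683, plus strand): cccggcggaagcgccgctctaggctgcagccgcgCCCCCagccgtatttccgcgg
SNHG12 (chr1:28581844-28581898, minus strand): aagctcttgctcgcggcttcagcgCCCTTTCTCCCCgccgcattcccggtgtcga
SNHG16 (chr17:76557739-76557793, plus strand): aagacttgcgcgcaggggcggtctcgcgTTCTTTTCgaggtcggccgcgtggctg
SNHG17 (chr20:38435299-38435353, minus strand): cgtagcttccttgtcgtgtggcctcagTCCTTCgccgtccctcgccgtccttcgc
SNHG19 (chr16:2155329-2155383, minus strand): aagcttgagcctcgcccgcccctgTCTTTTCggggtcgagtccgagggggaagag
SNHG20 (chr17:77088618-77088672, plus strand): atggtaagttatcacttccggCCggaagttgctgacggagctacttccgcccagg
SNHG21 (chr15:82750539-82750593, plus strand): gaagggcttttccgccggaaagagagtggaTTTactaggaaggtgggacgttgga
SNHG29 (chr17:16438962-16439016, plus strand): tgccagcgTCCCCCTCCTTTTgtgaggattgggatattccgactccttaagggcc
SNHG30 (chr17:35568089-35568143, plus strand): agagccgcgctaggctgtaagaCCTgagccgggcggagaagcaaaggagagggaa
A run of at least 6 pyrimidines touched that stretch in 11 of 16 SNHG genes (68.8%), in 84 of 296 lncRNA genes of the set that had a window (28.4%) and in 30.7% of 27305 genes of any kind. Of these SNHG runs, those of SNHG7 and SNHG29 ended before the start. The median run was 6 bases in SNHG genes and 4 bases over all genes. SNHG4 and SNHG29 had the longest runs of the SNHG genes, at 13 bases. SNHG20 had the shortest, at 2 bases. A run describes these letters and is not a measured start or binding site.

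Libraries held 31147822 to 59965861 counts, and the 421 genes took 0.319% to 0.414% of them. At that depth, 3 counts corresponded to 0.05 to 0.0963 CPM, a floor that covers counting error only. Control L pools stood apart in both lines. In control OVCAR3 L, 131 of 421 lncRNA genes (31.1%) had their highest level of all libraries, and in control CCL218 L 78 did (18.5%), while each other library held the highest level of 9 to 55 genes. HCQ-evolved OVCAR3 R held the lowest level of 81 genes (19.2%). Epithelial markers (EPCAM, KRT8, KRT18, CDH1) summed to at least 9285 CPM in every pool, whereas the 4 fibroblast markers reached at most 3.34 CPM and the 4 blood markers at most 0.748 CPM in sum. The 9 intestinal markers summed to 907 to 1121 CPM in control OVCAR3, 225 to 648 CPM in HCQ-evolved OVCAR3, 1105 to 1597 CPM in control CCL218 and 1154 to 1212 CPM in HCQ-evolved CCL218. Of 8 ovarian and Mullerian markers, 5 reached 1 CPM in every pool of all groups, and SOX17 and EMX2 stood at or under 3 counts. WT1, an ovarian serous marker, stood at 0.103, 0.377 and 0.407 CPM in control OVCAR3. The markers therefore did not set the libraries labelled OVCAR3 apart as ovarian, and line names are used here as labels.

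Levels between genes were compared per kilobase of annotated exon, in CPM normalized by trimmed mean of M values (TMM), which is the CPM of all values below. A GENCODE length was found for 370 of 421 genes (87.9%). The highest mean level over the 12 libraries was that of LINC00674 at 547 CPM per kilobase, but its GENCODE model is a pseudogene transcript of 160 bases, so this value rests on that model. SNHG6 followed at 35.7, SNHG29 at 33.9, BAIAP2-DT at 28.96, SNHG7 at 21.4, SNHG16 at 18.9, GATA2-AS1 at 18.8 and FGD5-AS1 at 18.6 CPM per kilobase. Genes with a length that were called between HCQ-evolved and control pools stood lower, from 0.102 (NR2F2-AS1) to 5.24 (VPS9D1-AS1) CPM per kilobase.

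Whether lncRNA genes changed with HCQ evolution was tested in each line with edgeR's quasi-likelihood test, with p-values adjusted over all genes tested. Changes are given as log2 fold changes of HCQ-evolved over control pools, ± the standard error. In OVCAR3, SSTR5-AS1 fell and LINC02432 rose, and the other lncRNA genes did not pass an adjusted p of 0.05. In CCL218, 7 lncRNA genes rose and 8 fell, and SSTR5-AS1 and LINC02432 were called again in the same directions. Among called genes, the lowest values there belonged to LHFPL3-AS2, LINC00261 and SSTR5-AS1.

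In OVCAR3, 375 of 421 genes had enough counts to be tested and 46 did not. The 1 gene that rose stood beside 0.647% of all 12204 genes tested, and the 1 that fell beside 1.21%. In CCL218, 366 genes were tested and 55 were not. The 7 genes that rose stood beside 3.82% of all 12241 genes, and the 8 that fell beside 2.64%. With plate position as a block, since pools of the same position deviated together in CCL218, 18 lncRNA genes rose beside 7.82% of all genes and 26 fell beside 6.43%. All 15 genes called without the block were also called with it.

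The counts turned on single pools. In CCL218, 38 lncRNA genes rose and 34 fell without control L, which was 20.7% of those tested, beside 25.2% of all genes. Leaving out any other pool left 0 that rose and 2 to 4 that fell (0.565% to 1.14% of those tested, beside 0.841% to 3.655% of all genes). In OVCAR3, leaving out control L or control R left 0 calls, beside 0.025% and 0.0332% of all genes. Leaving out HCQ-evolved R gave 1 that rose and 6 that fell (1.93% of those tested, beside 4.60% of all genes).

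SSTR5-AS1 (chr16:1064087-1078731, minus strand, GENCODE 44 on hg38) is transcribed opposite SSTR5, a somatostatin receptor gene. Control OVCAR3 pools stood at 22.4, 23.7 and 16.6 CPM (L, M and R) and HCQ-evolved OVCAR3 pools at 2.01, 1.93 and 0.954 CPM. Control CCL218 pools stood at 28.1, 25.2 and 24.1 CPM and HCQ-evolved CCL218 pools at 7.16, 6.59 and 6.67 CPM. Every evolved pool was below every control pool of its line, and the lowest was OVCAR3 R. The change was -3.67 ± 0.34 (adjusted p = 0.00707, edgeR) in OVCAR3 and -1.93 ± 0.13 (adjusted p = 0.00103, edgeR) in CCL218. In OVCAR3 the call was lost without control L (adjusted p = 0.101) or control R (adjusted p = 0.0581), and in CCL218 it was kept in every alternative run. SSTR5 itself stood at 22.7, 19.2 and 22.4 CPM in control OVCAR3 and 5.68, 5.19 and 0.954 CPM after evolution, with a change of -2.44 ± 0.57 (adjusted p = 0.0838, edgeR). In CCL218 it stood at 20.1, 12.3 and 14.2 CPM and then 12.4, 10.2 and 9.91 CPM, with a change of -0.52 ± 0.21 (adjusted p = 0.182, edgeR). Neither of these changes of SSTR5 passed, and its pools were apart in OVCAR3 and overlapped in CCL218. With a correction for exon length and GC content SSTR5 passed in OVCAR3, with -2.355 (adjusted p = 0.0264, edgeR). In CCL218 it did not, with -0.27 (adjusted p = 0.142, edgeR). No exon of SSTR5-AS1 overlaps a coding exon in GENCODE.

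LINC02432 (chr4:141302910-141357096, minus strand) is intergenic and 68213 bases from ZNF330, the nearest coding gene. It stood at 1.13, 0.848 and 0.906 CPM in control OVCAR3 and 3.65, 4.22 and 4.52 CPM after evolution. Control CCL218 pools held 2.78, 3.11 and 2.97 CPM and HCQ-evolved CCL218 pools 5.48, 5.25 and 4.86 CPM. All evolved pools exceeded all control pools of their line. By counts over the library total, only its evolved pools reached 1 CPM in OVCAR3, so the pools there had to be apart. The change was 2.12 ± 0.26 (adjusted p = 0.0146, edgeR) in OVCAR3 and 0.81 ± 0.16 (adjusted p = 0.0323, edgeR) in CCL218. In OVCAR3 the call was lost without any 1 control pool (adjusted p = 0.0691 to 0.125) and the gene could not be tested without any 1 evolved pool, and in CCL218 the call was kept without control L (adjusted p = 0.00803) but lost without any other pool (0.0683 to 0.172).

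**Figure D1:**
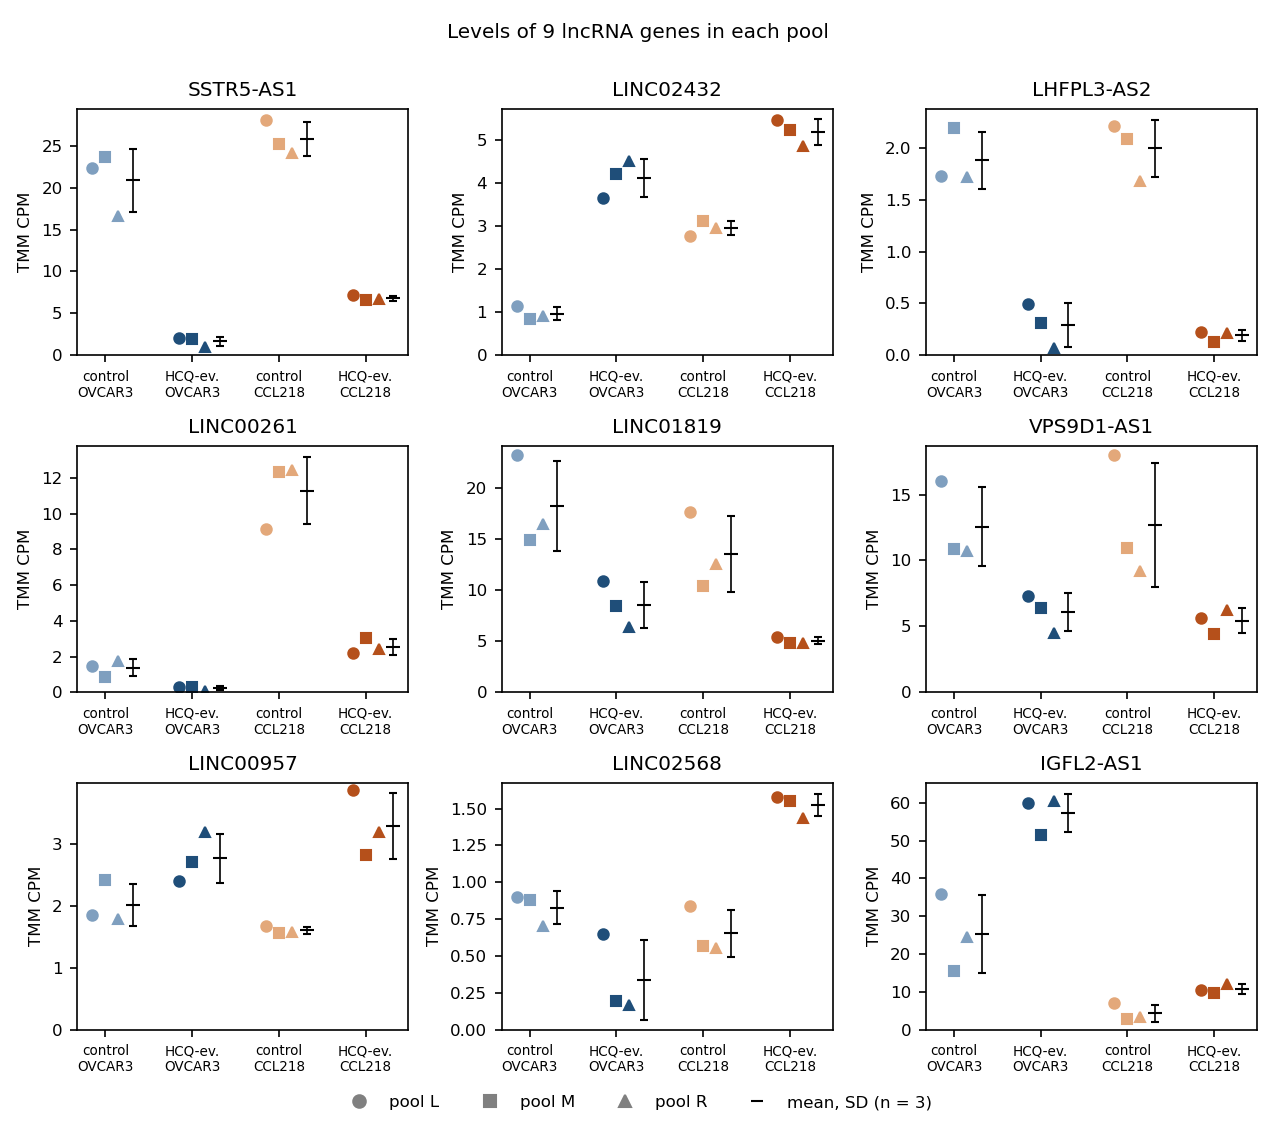
TMM-normalized CPM of 9 lncRNA genes (vertical axes, from 0) in each pool of the 4 groups, with the mean and SD of 3 pools. HCQ-evolved pools of SSTR5-AS1 lie below the control pools of their line, and those of LINC02432 lie above.

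Start windows of SSTR5-AS1 and LINC00261, called genes with RefSeq entries, are shown from 250 bases before to 50 bases after the start on the gene's own strand (GRCh38.p14). Capitals mark TATAAA on either strand. CACGTG, the core of the element bound by lysosomal gene regulators such as TFEB, was searched on both strands as well.
SSTR5-AS1 (chr16:1078682-1078981, minus strand): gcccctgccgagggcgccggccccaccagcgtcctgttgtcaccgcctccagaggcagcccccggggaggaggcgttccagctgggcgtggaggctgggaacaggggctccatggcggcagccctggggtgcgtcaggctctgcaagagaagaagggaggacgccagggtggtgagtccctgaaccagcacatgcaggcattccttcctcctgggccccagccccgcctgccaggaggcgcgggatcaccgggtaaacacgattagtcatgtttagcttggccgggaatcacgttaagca
LINC00261 (chr20:22578593-22578892, minus strand): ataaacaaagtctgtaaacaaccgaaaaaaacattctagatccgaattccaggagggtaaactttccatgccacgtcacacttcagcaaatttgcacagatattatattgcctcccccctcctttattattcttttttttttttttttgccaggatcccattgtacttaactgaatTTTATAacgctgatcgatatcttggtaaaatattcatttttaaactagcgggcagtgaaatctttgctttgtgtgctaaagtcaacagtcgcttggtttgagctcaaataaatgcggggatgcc
CACGTG was in 0 of 8 windows of called genes, in 31 of 296 lncRNA windows (10.5%) and in 8.78% of windows of all genes. TATAAA on either strand was in 34 lncRNA windows (11.5%) and 14.0% of all windows, and a reverse match stood in the window of LINC00261. No match says only that these letters were not in the window.

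LINC00261 (chr20:22547663-22578642, minus strand) lies 2356 bases from FOXA2, a transcription factor gene of endodermal tissues. Control CCL218 pools stood at 9.15, 12.3 and 12.4 CPM and HCQ-evolved CCL218 pools at 2.18, 3.02 and 2.41 CPM, a change of -2.16 ± 0.20 (adjusted p = 0.00279, edgeR). In OVCAR3 it was too low to be tested, at 1.495, 0.879 and 1.78 CPM in control pools and 0.314, 0.2701 and 0.1004 CPM after evolution. Evolved pools were below control pools in both lines. Among intestinal markers, CDX2, CDH17, GPA33 and CEACAM5 rose in CCL218 (4 of 6 tested), VIL1 and LGALS4 were below 0 there and did not pass, and 0 of 6 were called in OVCAR3. The summed level of the list overlapped between control and HCQ-evolved CCL218. Their part in the lncRNA changes was not tested.

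LHFPL3-AS2 (chr7:104894628-104926645, minus strand) stood at 2.21, 2.09 and 1.69 CPM in control CCL218 and 0.226, 0.128 and 0.217 CPM after evolution, a change of -3.38 ± 0.31 (adjusted p = 0.00253, edgeR). In OVCAR3 it stood at 1.73, 2.198 and 1.72 CPM and then 0.489, 0.309 and 0.0669 CPM, and the change of -2.69 ± 0.57 (adjusted p = 0.06405, edgeR) did not pass. Pools were apart in both lines, which the threshold had set, because only control pools of LHFPL3-AS2 reached it. Its partner LHFPL3 stood at or under 0.516 CPM in every pool. RNF157-AS1 (chr17:76138432-76154650, plus strand) stood at 3.15, 2.07 and 1.49 CPM in control CCL218 and 0.883, 0.656 and 0.518 CPM after evolution, a change of -1.71 ± 0.36 (adjusted p = 0.0368, edgeR). In OVCAR3 it stood at 2.32, 1.19 and 1.48 CPM and then 0.454, 0.752 and 0.351 CPM, with pools apart and a change of -1.66 ± 0.40 (adjusted p = 0.0874, edgeR) that did not pass. RNF157-AS1 too reached the threshold only in control pools, so its pools had to be apart in both lines. RNF157, a ubiquitin ligase gene on the other strand, had a change of 0.48 ± 0.22 (adjusted p = 0.219, edgeR) in CCL218 but fell in OVCAR3, with -2.64 ± 0.41 (adjusted p = 0.0285, edgeR). Coding exons on the opposite strand cover 50.2% of the exons of RNF157-AS1. Strand-specific counting is not stated in the sources used here, so reads of antisense genes and of such partners cannot be told apart.

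LINC01819 (chr2:42972255-43040662, minus strand) stood at 17.7, 10.4 and 12.6 CPM in control CCL218 and 5.44, 4.88 and 4.81 CPM after evolution, a change of -1.43 ± 0.22 (adjusted p = 0.0138, edgeR). VPS9D1-AS1 (chr16:89711856-89718165, plus strand) stood at 18.02, 10.9 and 9.18 CPM and then 5.603, 4.39 and 6.25 CPM, a change of -1.23 ± 0.28 (adjusted p = 0.04899, edgeR). Both had all evolved pools below all control pools in both lines. In OVCAR3 their changes of -1.07 ± 0.26 (adjusted p = 0.0927, edgeR) and -1.03 ± 0.26 (adjusted p = 0.101, edgeR) did not pass. VPS9D1 had a change of -0.60 ± 0.28 (adjusted p = 0.233, edgeR) in CCL218, and 29.6% of the exons of VPS9D1-AS1 overlap coding exons on the other strand. The remaining falls in CCL218, named after their values were seen, were LINC01963 with -1.04 ± 0.17 (adjusted p = 0.0152, edgeR) and LINC00346 with -0.79 ± 0.17 (adjusted p = 0.0373, edgeR).

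Among rises in CCL218, LINC00663 (chr19:19757366-19776423, minus strand) went from 0.492, 0.544 and 0.213 CPM to 1.23, 1.88 and 1.204 CPM, a change of 1.78 ± 0.39 (adjusted p = 0.0427, edgeR). NR2F2-AS1 (chr15:96110040-96327361, minus strand), opposite the nuclear receptor gene NR2F2, went from 0.59, 0.631 and 0.469 CPM to 1.31, 1.69 and 1.19 CPM, a change of 1.30 ± 0.27 (adjusted p = 0.0339, edgeR). NR2F2 averaged 162 ± 27.8 CPM in control and 187 ± 3.3 CPM (SD, n = 3 pools) in HCQ-evolved CCL218, and its change of 0.20 ± 0.15 (adjusted p = 0.423, edgeR) did not pass. LINC02568 (chr15:63390136-63438320, plus strand), 8290 bases from the carbonic anhydrase gene CA12, went from 0.836, 0.566 and 0.555 CPM to 1.58, 1.55 and 1.44 CPM, a change of 1.22 ± 0.26 (adjusted p = 0.0368, edgeR). All of these lncRNA genes were under 1 CPM in each control CCL218 pool and above it in each evolved pool. They were tested in CCL218 only because the evolved group reached the threshold, so these pools had to be apart.

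LINC00957 (chr7:44039171-44042306, plus strand) went from 1.67, 1.57 and 1.58 CPM to 3.88, 2.82 and 3.21 CPM, a change of 1.04 ± 0.21 (adjusted p = 0.0318, edgeR). LINC02535 (chr6:85387219-85390186, minus strand) went from 2.56, 3.09 and 3.31 CPM to 5.42, 6.59 and 5.63 CPM, a change of 0.97 ± 0.18 (adjusted p = 0.0255, edgeR). LINC00847, named after its values were seen, had a change of 0.72 ± 0.16 (adjusted p = 0.0454, edgeR). In OVCAR3 the pools of all of these overlapped between groups. When all 12 libraries shared 1 estimate of the spread, LINC00663, LINC02568, LINC02535 and LINC00847 lost their calls in CCL218 (adjusted p = 0.0645, 0.122, 0.0616 and 0.101, edgeR).

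A gene tested only because 1 group reached the threshold had to differ. In OVCAR3 this applied to 14 tested lncRNA genes, of which LINC02432 was called. In CCL218 it applied to 15, of which LHFPL3-AS2, RNF157-AS1, LINC00663, NR2F2-AS1 and LINC02568 were called. Between control pools it applied to 6, of which FAM83A-AS1 and LINC02432 were called.

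Over all tested lncRNA genes, called or not, more were lower than higher after evolution when all pools were used. In OVCAR3, pools did not overlap for 30 lncRNA genes that were higher (8%, with 13.0% of all genes) and 68 that were lower (18.1%, with 12.7% of all genes). In CCL218 this held for 42 that were higher (11.5%, with 18.6% of all genes) and 76 that were lower (20.8%, with 17.3%). Both the counts and the shares of all genes were taken without removing genes tested only because 1 group reached the threshold. In OVCAR3 these were 6 lncRNA genes through evolved and 8 through control pools, and in CCL218 8 and 7. The median change over tested lncRNA genes was -0.19 in OVCAR3, beside 0.02 for all genes, and -0.14 in CCL218, beside -0.02. Without control L the medians were -0.07 and -0.01. In those fits 155 lncRNA genes were above 0 and 194 below in OVCAR3 (55.6% below, beside 47.7% of all genes). In CCL218 172 were above 0 and 176 below (50.6% below, beside 51.1% of all genes). By class, medians in OVCAR3 were -0.33 for SNHG, -0.16 for LINC, -0.19 for antisense and 0.10 for divergent genes. In CCL218 they were -0.28, -0.14, -0.15 and 0.17. Of the 3 intronic genes, 1 was above 0 and 2 below in each line.

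**Figure D2:**
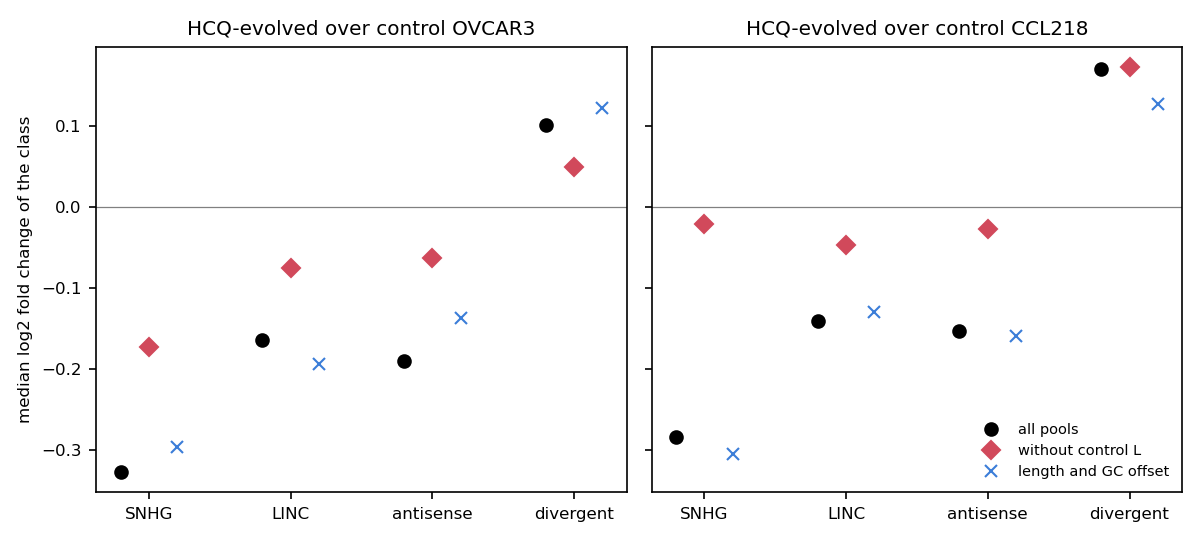
Median log2 fold change of each lncRNA class (vertical axis) in OVCAR3 and CCL218, with all pools and under the alternatives named in the key. Medians of SNHG, LINC and antisense genes lie below 0 and nearer to it without control L, and divergent genes lie above 0.

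Among 337 lncRNA genes tested in both lines, 249 (73.9%) had changes of the same sign, 175 of them below 0 and 74 above, and the correlation across genes was r = 0.67 (Spearman's rho 0.59). Over 11944 genes of any kind, 73.1% had the same sign and r was 0.56. The lines share no library, but their control L pools deviated alike from the other controls. Without both, 222 of 318 lncRNA genes (69.8%) had the same sign, beside 67.5% of all genes. Genes are not independent replicates, and these figures are a description.

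**Figure D3:**
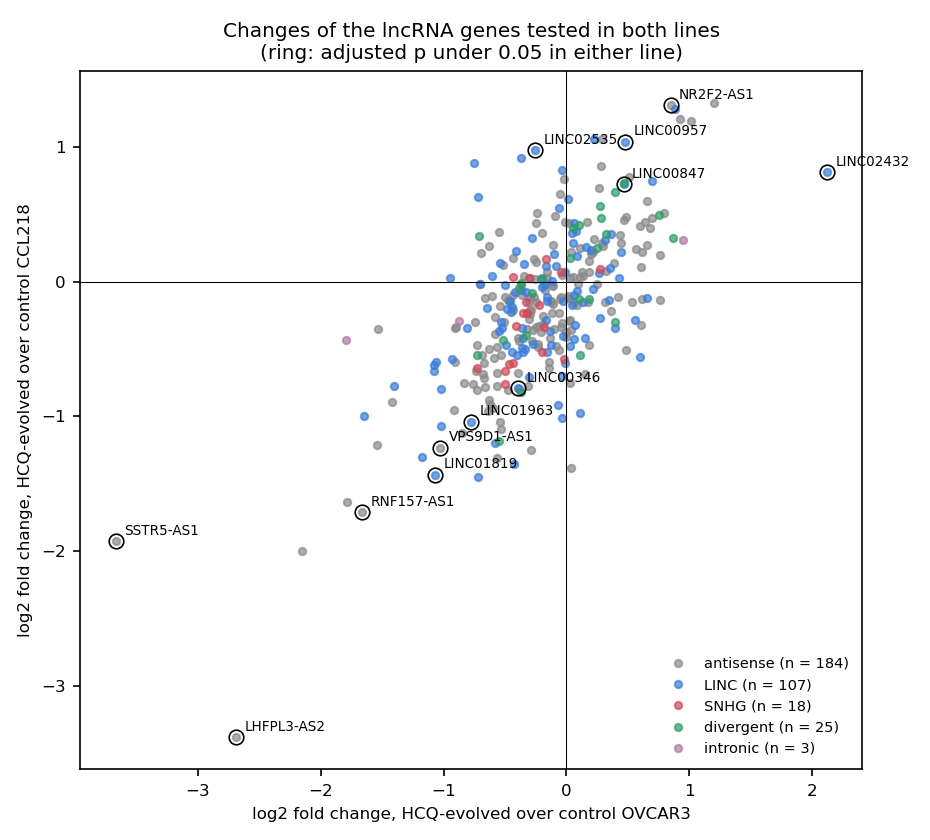
Log2 fold change of the 337 lncRNA genes tested in both lines, with OVCAR3 on the horizontal and CCL218 on the vertical axis, coloured by class, with rings at an adjusted p under 0.05 in either line. SSTR5-AS1 and LHFPL3-AS2 lie at the lower left, and LINC02432 at the right.

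Whether the change differed between the lines was tested as an interaction (CCL218 minus OVCAR3) on all 421 genes. SSTR5-AS1 (1.76) and LINC02432 (-1.28) passed, 2 genes beside 0.872% of 12613 genes. The call of SSTR5-AS1 was kept without HCQ-evolved OVCAR3 L or R and lost without any other 1 pool (adjusted p = 0.0513 to 0.144), and that of LINC02432 was kept without HCQ-evolved OVCAR3 R and lost without any other (0.0527 to 0.158). With the replicate block 0 lncRNA genes passed in edgeR, beside 0.2775% of all genes, with an adjusted p of 0.0509 for SSTR5-AS1 and 0.262 for LINC02432. SYNPR-AS1, SLCO4A1-AS1 and LINC02568 came next and did not pass. SYNPR-AS1 stood at 0.696, 1.099 and 0.777 CPM in control OVCAR3 and 0.611, 0.463 and 0.469 CPM after evolution, and at 0.762, 0.457 and 0.469 CPM and 1.68, 1.29 and 0.986 CPM in CCL218. Its pools were lower after evolution in OVCAR3 and higher in CCL218. In CCL218 only evolved pools of SYNPR-AS1 reached the threshold, so its pools had to be apart there. Its interaction was 1.96 ± 0.46 (adjusted p = 0.0877, edgeR). SYNPR stood at or under 0.103 CPM. SLCO4A1-AS1 stood at 1.86, 0.691 and 1.11 CPM and 1.82, 1.27 and 1.51 CPM in OVCAR3, and at 0.983, 1.001 and 1.003 CPM and 0.39, 0.182 and 0.234 CPM in CCL218, with an interaction of -2.22 ± 0.54 (adjusted p = 0.0945, edgeR). The transporter gene SLCO4A1 had 0.24 ± 0.24 (adjusted p = 0.6803, edgeR) and 0.50 ± 0.15 (adjusted p = 0.0886, edgeR) in the lines, neither of which passed, and with the block in CCL218 it rose, with 0.51 (adjusted p = 0.0398, edgeR). LINC02568 stood at 0.902, 0.879 and 0.703 CPM in control OVCAR3 and 0.646, 0.193 and 0.167 CPM after evolution, against its rise in CCL218, with an interaction of 2.51 ± 0.62 (adjusted p = 0.103, edgeR). LINC02568 reached the threshold only in evolved CCL218 pools, so its pools had to be apart in CCL218.

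Control pools of both labels were compared as well, as CCL218 over OVCAR3. Of 378 lncRNA genes tested, 2 were higher in control CCL218, beside 0.941% of 12324 genes, and 3 were lower, beside 1.08%. With plate position as a block, 19 were higher (17.6% of all genes) and 69 lower (18.8% of all genes). LINC00261 averaged 1.38 ± 0.459 CPM in control OVCAR3 and 11.3 ± 1.86 CPM in control CCL218 (SD, n = 3 pools), a difference of 3.01 ± 0.30 (adjusted p = 0.00604, edgeR). LINC02432 was higher in control CCL218 too, with 1.61 ± 0.25 (adjusted p = 0.0215, edgeR). FAM83A-AS1 stood at 2.94, 2.07 and 2.02 CPM in control OVCAR3 and 0.418, 0.283 and 0.448 CPM in control CCL218, a difference of -2.60 ± 0.33 (adjusted p = 0.0115, edgeR). Its partner FAM83A, a signalling adaptor gene, differed by -2.74 ± 0.22 (adjusted p = 0.00369, edgeR), and 4.10% of the exons of FAM83A-AS1 overlap coding exons on the other strand. IGFL2-AS1 (chr19:46189029-46203160, minus strand) stood at 35.9, 15.5 and 24.6 CPM in control OVCAR3 and 6.93, 2.76 and 3.201 CPM in control CCL218, a difference of -2.56 ± 0.45 (adjusted p = 0.0378, edgeR). LINC01503 (chr9:129332300-129359549, plus strand) averaged 3.92 ± 1.04 CPM and 1.17 ± 0.291 CPM, a difference of -1.75 ± 0.31 (adjusted p = 0.0411, edgeR). Of the genes called here, LINC02432 and FAM83A-AS1 were tested only because 1 group reached the threshold, so they had to differ. Without control OVCAR3 R, 0 of the calls between controls were kept, beside 0.205% of all genes called. Without any 1 of the other pools except control CCL218 L, 1 or 2 lncRNA genes were called, beside 0.3925% to 0.958% of all genes. Without both control L libraries 1 was higher and 1 lower, beside 1.07% of all genes.

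IGFL2-AS1 was also higher in every HCQ-evolved pool than in the control pools of its line, at 59.8, 51.5 and 60.4 CPM in OVCAR3 and 10.4, 9.73 and 12.2 CPM in CCL218. Its changes of 1.20 ± 0.30 (adjusted p = 0.0939, edgeR) and 1.32 ± 0.35 (adjusted p = 0.0717, edgeR) did not pass, and with the block it passed in CCL218, with 1.43 (adjusted p = 0.00968, edgeR). IGFL2 stood at or under 1.76 CPM in all pools.

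Of the SNHG genes, 0 of 19 tested in OVCAR3 and 0 of 18 in CCL218 were called by edgeR, with 1 and 2 at an unadjusted p under 0.05. With the block in CCL218, SNHG15 fell, with -0.56 (adjusted p = 0.0477, edgeR). Changes were below 0 for 18 of 19 SNHG genes in OVCAR3 and 13 of 18 in CCL218, and without control L for 13 of 18 and 9 of 18. Pools of a group differed from one another: all 19 genes were above their own mean in control OVCAR3 L and R, 11 had their highest level in control OVCAR3 L, and 13 their lowest in HCQ-evolved OVCAR3 R. Median deviations from the gene mean were 0.67, -0.09 and 0.48 (log2) in control OVCAR3 L, M and R and 0.30, 0.39 and -0.62 in HCQ-evolved OVCAR3. In CCL218 they were 0.47, -0.30 and -0.15 in control and -0.04, -0.30 and -0.37 in HCQ-evolved pools. Over 171 pairs of SNHG genes the median correlation across the 12 libraries was 0.80, and over all 88410 pairs of the 421 genes it was 0.16, from libraries that share depth and length trends. Across all genes, the rank correlation of a gene's deviation with exon length was -0.275, 0.388 and -0.35 in control OVCAR3 L, M and R. It was -0.321, -0.336 and 0.457 in HCQ-evolved OVCAR3 L, M and R, and ranged from -0.379 to 0.364 over CCL218 pools. The part of this trend in the SNHG levels was not tested beyond the correction for length and GC content. With that correction the SNHG medians were -0.30 in OVCAR3 and -0.30 in CCL218.

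**Figure D4:**
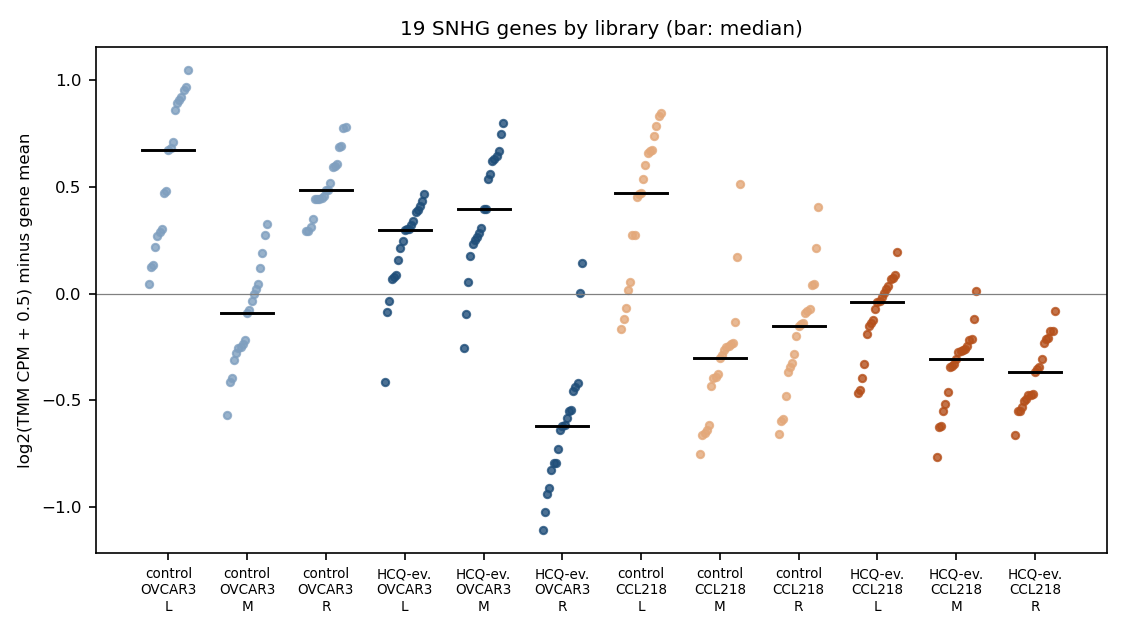
Deviation of each of 19 SNHG genes from its own mean over the 12 libraries (vertical axis, log2), with 1 column per library and the median marked. Control L pools lie above 0 at 0.67 and 0.47, and HCQ-evolved OVCAR3 R lies at -0.62.

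SNHG6 showed this spread, at 156, 62.1 and 116 CPM in control and 115, 129.8 and 46.5 CPM in evolved pools of OVCAR3. In CCL218 it stood at 143, 53.9 and 59.2 CPM in control and 87.2, 57.7 and 58.3 CPM in evolved pools. SNHG7 ranged over 47.4 to 176 CPM, SNHG1 over 37.04 to 96.8 CPM and SNHG17 over 8.87 to 38.99 CPM. Changes of SNHG6, SNHG7, SNHG1 and SNHG17 were -0.18, -0.44, -0.20 and -0.73 in OVCAR3 and -0.34, 0.03, -0.52 and -0.64 in CCL218, none of which passed. SNHG29 stood at 349, 343 and 383 CPM in control and 318, 339 and 205 CPM in evolved pools of OVCAR3. In CCL218 it stood at 286, 274 and 284 CPM in control and 300.5, 302 and 259.7 CPM in evolved pools. SNHG16 was lower in all evolved pools of both lines, at 118, 131 and 132 CPM against 102, 101 and 80.6 CPM in OVCAR3 and 112, 122 and 125 CPM against 97.2, 92.9 and 95.5 CPM in CCL218. Its changes of -0.41 ± 0.17 (adjusted p = 0.292, edgeR) and -0.33 ± 0.11 (adjusted p = 0.121, edgeR) did not pass, but in CCL218 it passed without control L (adjusted p = 0.00834). SNHG4, at 3.16 to 6.72 CPM, had changes of -0.47 ± 0.24 (adjusted p = 0.391, edgeR) and -0.61 ± 0.23 (adjusted p = 0.1598, edgeR).

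The remaining SNHG genes were described by their range over the 12 libraries. SNHG8 stood at 22.2 to 64.8 CPM, SNHG3 at 18.5 to 49.4 CPM, SNHG15 at 10.5 to 37.8 CPM and SNHG30 at 8.55 to 27.4 CPM. SNHG12 stood at 8.55 to 27.3 CPM, SNHG5 at 8.803 to 25.2 CPM, SNHG11 at 4.77 to 9.54 CPM and SNHG19 at 2.51 to 10.1 CPM. SNHG10 stood at 2.38 to 6.54 CPM, SNHG20 at 2.08 to 6.097 CPM, SNHG21 at 1.07 to 3.59 CPM and SNHG9 at 0.335 to 1.96 CPM. Pools of these genes overlapped between HCQ-evolved and control groups in both lines.

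Partner genes of the suffix classes were in the table for 260 of 269 lncRNA genes. Changes of 208 pairs tested in OVCAR3 correlated with r = 0.41 (rho 0.27) and those of 200 pairs in CCL218 with r = 0.40 (rho 0.32), as a description across genes. For the 55 pairs in each line whose lncRNA has no exon overlap with a coding gene, r was 0.57 in OVCAR3 and 0.56 in CCL218, and where exons overlapped it was 0.31 over 132 pairs and 0.30 over 122. In 0 pairs were both genes called in the same line. The partner was called in 5 of 208 pairs in OVCAR3, beside 1.86% of all genes, and in 9 of 200 pairs in CCL218, beside 6.46%. SLC2A1-AS1, named after its values were seen, had a change of 1.20 ± 0.31 (adjusted p = 0.0659, edgeR) in CCL218 beside 1.35 ± 0.16 (adjusted p = 0.00553, edgeR) for the glucose transporter gene SLC2A1. With the block SLC2A1-AS1 passed, with 1.27 (adjusted p = 0.00598, edgeR).

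**Figure D5:**
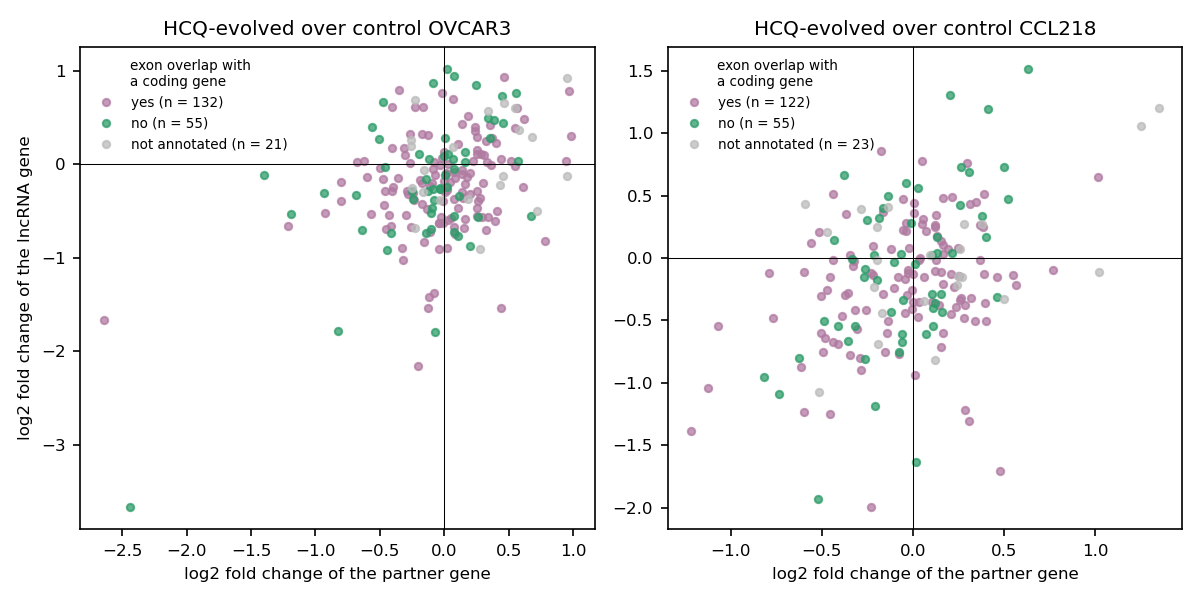
Log2 fold change of antisense, divergent and intronic lncRNA genes against that of their partner genes by symbol, in OVCAR3 (208 pairs) and CCL218 (200 pairs), coloured by exon overlap. The points of each panel spread around 0 with r of 0.41 and 0.40.

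Genes that act on lncRNAs and host transcripts were counted from lists. Beside all list counts, 0.647% of all genes rose and 1.21% fell in OVCAR3, and 3.82% and 2.64% in CCL218. With the block in CCL218 these shares of all genes were 7.82% and 6.43%. Of 18 tested snoRNA host genes without an SNHG symbol, 0 were called in OVCAR3, and EIF4A2, a translation initiation factor gene, rose in CCL218 from 437, 385 and 403 CPM to 763, 788 and 609 CPM, a change of 0.81 ± 0.14 (adjusted p = 0.0218, edgeR), with list medians of -0.20 and -0.33, and with the block 1 rose and 2 fell (DANCR and DKC1). Of 16 snoRNP core and assembly genes, 0 were called in either line, with 14 and 15 below 0 and medians of -0.15 and -0.37, and with the block 2 fell in CCL218. Of 19 nonsense-mediated decay genes, 0 were called in either line (medians -0.02 and -0.04), and with the block 1 rose and 2 fell in CCL218. Of 20 nuclear exosome genes, EXOSC8 fell in CCL218 from 33.9, 21.4 and 25.5 CPM to 15.3, 15.1 and 14.9 CPM, a change of -0.84 ± 0.18 (adjusted p = 0.0433, edgeR), with list medians of -0.09 and -0.20, and with the block 3 fell. Of 18 Integrator and end processing genes, 0 were called (medians -0.02 and -0.16), and with the block 1 fell. Of known lncRNAs outside the symbol rule, HAGLR was called lower among 25 tested in OVCAR3, at 1.805, 1.95 and 1.74 CPM in control pools against 0.0699, 0 and 0 CPM in HCQ-evolved pools. HAGLR was tested only because its control pools reached the threshold, so it had to differ. In CCL218 0 of 26 passed, and with the block 2 rose and 8 fell. Medians of that list were -0.33 and -0.22, and -0.11 and -0.19 without control L.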

How the data were processed

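Read counts per gene were deposited for 12 libraries. Per the study's methods, the authors aligned reads to hg38 with STAR, removed duplicates with RmDup and counted with featureCounts, whose versions and strand setting are not given in the sources used here. Of low count entries, 78.9% were even. All table columns had a sample (0 did not). The lncRNA genes and the lists were chosen with earlier results of these data known. edgeR 4.0.16 in R 4.3.3 tested genes that reached 1 CPM in 3 or more fitted libraries (TMM, robust quasi-likelihood F test, Benjamini-Hochberg over all genes, threshold 0.05), per line, with 1 joint fit for the interaction. The script was tested on simulated data. DESeq2 1.42.0, its size factors, no filter, left-out pools, a joint fit and an offset for exon length and GC content (GENCODE 44) were alternatives.

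Pools of the same position came from different plates, and no label pairs them. Their deviations correlated above 0 in CCL218 (0.506, 0.233 and 0.195 for L, M and R) and between controls (0.846, 0.804 and 0.237). In OVCAR3 the sign was mixed (0.401, -0.665 and -0.478). The block thus rests on correlations within these data, not on a paired design. The part of the exon length trend in them was not tested. Named genes were the 6 highest and 6 lowest called per line, those called in both, the 5 smallest p-values of the interaction and of the control comparison, all SNHG genes, the 8 highest per kilobase, partners, genes at the threshold, and called genes of the lists. Start windows came from RefSeq.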

Additional observations from a re-analysis of the deposited data

Results flagged for a closer look

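SSTR5-AS1 changed differently in the 2 lines. It fell less in CCL218 (-1.93, log2) than in OVCAR3 (-3.67), a difference of 1.76 (standard error 0.34, adjusted p = 0.0433, edgeR interaction), and it was lower in all HCQ-evolved pools of both lines. With the replicate block the adjusted p was 0.0509, and without 1 pool the call was lost (0.0513 to 0.144) except without HCQ-evolved OVCAR3 L or R.

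LINC02432 also changed differently, by -1.28 (log2, standard error 0.26, adjusted p = 0.0483, edgeR interaction), and it was higher in all HCQ-evolved pools of both lines. In OVCAR3 it was tested only because its evolved pools reached the threshold, so its pools had to be apart there. With the replicate block the adjusted p was 0.262, and without 1 pool the call was lost (0.0527 to 0.158) except without HCQ-evolved OVCAR3 R. Groups of 3 pools were not searched for outlying pools.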

How the results depend on the processing

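Leaving out 1 pool at a time gave 0 to 1 lncRNA genes higher and 0 to 6 lower in HCQ-evolved OVCAR3, 0 to 38 higher and 2 to 34 lower in HCQ-evolved CCL218, 0 to 4 with a different change between the lines, and 0 to 1 higher and 0 to 9 lower in control CCL218. The called share was 0% to 1.93% in OVCAR3, 0.565% to 20.7% in CCL218, 0% to 0.9615% between lines and 0% to 2.81% between controls. Beside these stood 0.025% to 4.60%, 0.841% to 25.2%, 0.302% to 1.69% and 0.205% to 3.86% of all genes. In the order higher and lower in OVCAR3, higher and lower in CCL218, different between lines, and higher and lower in control CCL218, DESeq2 gave 7, 24, 26, 42, 8, 4 and 11 genes, no filter 3, 8, 13, 21, 1, 2 and 8, and the length and GC offset 4, 5, 16, 23, 3, 3 and 5. One fit of all libraries gave 7 and 18 in OVCAR3, 7 and 12 in CCL218 and 4 and 8 between controls. In the order OVCAR3, CCL218, between lines and between controls, the called share of tested lncRNA genes was 8.27%, 18.6%, 1.90% and 3.97% with DESeq2, beside 9.05%, 17.7%, 3.67% and 5.96% of all genes. It was 2.61%, 8.08%, 0.2375% and 2.375% with no filter, beside 2.56%, 4.625%, 0.527% and 1.81%, and 2.40%, 10.7%, 0.713% and 2.12% with the offset, beside 5.24%, 13.6%, 2.15% and 3.465%. One fit of all libraries gave 6.67% in OVCAR3, 5.19% in CCL218 and 3.175% between controls, beside 8.85%, 5.18% and 3.29%. The replicate block gave 0 higher and 1 lower in OVCAR3, 18 and 26 in CCL218, 0 different between lines, and 19 and 69 between controls, and with the length and GC offset 21 and 25 in CCL218. Pools joined by the block share only a plate position, in each line and between controls. Without both control L libraries, chosen after seeing the data, 1 gene differed between lines, and 1 was higher and 1 lower between controls. Those were 0.254% and 0.595% of tested lncRNA genes, beside 0.553% and 1.07% of all genes. DESeq2 size factors changed no count. The causes were not tested, beyond fewer pools in fits that leave pools out.

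Over the called genes named, other settings kept the call in 150 fits and lost it in 12, and leaving out a pool kept it in 45 and lost it in 87, with no change of sign. Directions turned for genes that were not called. Leaving out 1 pool in OVCAR3 gave -0.4450 to 0.0216 for LINC02535, -0.4679 to 0.1474 for SNHG6, -0.3895 to 0.0392 for SNHG1 and -0.3239 to 0.0285 for LINC00674, and in CCL218 -0.5770 to 0.2511 for SNHG6, -0.1262 to 0.3943 for SNHG7 and -0.0024 to 0.0967 for SNHG29. The length and GC offset gave 0.0833 for LINC00674 in OVCAR3 and -0.0377 for SNHG29 in CCL218, or -0.0372 with the block. Depth, 3 pools and 1 plate per group limit these comparisons.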
